A study of Homo sapiens with 4 samples.

Results

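The genes described here are 42 nucleolar ribosome biogenesis genes, listed by name and found in the count table through their Ensembl IDs and GENCODE symbols. All 42 were among the 20263 gene IDs of the table, and all 42 had enough counts to be among the 14044 genes tested. By role they comprised 5 genes of RNA polymerase I transcription, 5 of nucleolar scaffold and regulatory proteins, 4 of box C/D particles, 4 of box H/ACA particles, 14 of small subunit processing and 10 of large subunit processing.

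RNA sequencing had been carried out on HCT116, an established human colorectal carcinoma line that the labels give as wild type. Cells had received either 32 µM HJ-4, a piperine derivative, or 0.1% DMSO, the solvent control, for 24 h. There were 2 libraries per group, named here DMSO 1, DMSO 2, HJ-4 1 and HJ-4 2. The comparison asked which transcripts differed between HJ-4 and DMSO, and here how the machinery that makes ribosomes was expressed.

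The nucleolus is the compartment in which RNA polymerase I transcribes the precursor of the ribosomal RNAs. Small nucleolar ribonucleoprotein particles modify that precursor, box C/D particles by methylation of the ribose and box H/ACA particles by conversion of uridine to pseudouridine. Large assemblies of processing factors then cut and fold it into the small and large ribosomal subunits. Proliferating tumour cells make many ribosomes, and the transcription factor MYC is known to drive many of these genes.

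The libraries held 29769568 to 34359889 counts each. The mitochondrially encoded genes took 6.01% to 7.73% of the counts, and the 10 most abundant genes took 9.65% to 10.6%. Of 12 markers of colon epithelium, 9 were tested and the other 3 (CDX1, VIL1 and LGALS4) stayed at or below 0.440 CPM (read counts scaled to library size), and the list summed to 4121 to 5050 CPM. Of 12 markers of other cell types, 10 stayed below 1 CPM in every library, and the list summed to 60.1 to 64.3 CPM, nearly all of it COL1A1. The study's methods speak of biological triplicates, but the labels do not tie these libraries to separate cultures, so a p-value here reflects only how far these libraries scatter, and that scatter may be technical. In RNA from whole dishes, fewer cells and less RNA per cell cannot be told apart.

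No member of the 42 passed the test between HJ-4 and DMSO (edgeR, adjusted p under 0.05), and the smallest adjusted p was 0.274, for BYSL. Over all genes the same test called 7 of 14044, or 0.0498%, and 0 of 42 is near that background. DESeq2 called 559 of the 14044 genes (3.98%) and again none of the members. Fold changes of the members were small, from -0.27 (PES1) to 0.68 (UTP20) on the log2 scale. The 95% interval excluded a change of 1 log2 unit in either direction for 38 of the 42, and it included 0 for 32.

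Below the level of single calls, more members lay above 0 than below. Their fitted log2 fold change was positive for 31 and negative for 11, or 73.8% positive against 50.7% of all genes tested, and the median was 0.17 against 0.00. At an unadjusted edgeR p under 0.05, 8 members were higher with HJ-4 (DDX21, RRP9, UTP15, WDR75, UTP20, BYSL, GNL2 and GNL3), or 19%, against 7.93% of all genes. At the same level 2 members were lower (NOP14 and PES1), or 4.76%, against 7.93% of all genes in that direction. Each HJ-4 library exceeded each DMSO library for 18 members (42.9%, against 25.2% of all genes). Both lay below for 4 members, FBL, NOP56, NOP14 and PES1 (9.52%, against 25.6%), and the groups overlapped for the other 20. Genes of 1 pathway vary together, and the members were chosen with earlier results of these data known. These shares therefore describe these 4 libraries and are not a test of the set.

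The pattern depended on which control library the HJ-4 libraries were set against. The members' median log2 level, centred on each gene's mean over the 4 libraries, was -0.17 in DMSO 1, 0.01 in DMSO 2, 0.12 in HJ-4 1 and 0.05 in HJ-4 2, where the median over all genes was between 0.00 and 0.01 in every library. DMSO 1 held the lowest value of 24 members (57.1%, against 26.7% of all genes), and HJ-4 1 the highest value of 24 members (57.1%, against 24.3%). The members differed between the control libraries as well, with a median of 0.16 log2 units for DMSO 2 minus DMSO 1, against -0.02 over all genes. The mean of the HJ-4 libraries lay a median of 0.29 above DMSO 1 and 0.08 above DMSO 2. Without DMSO 1 the members' median fitted change was 0.08, 1 member was higher at an unadjusted p under 0.05, against 9.23% of all genes tested in that fit, and none lower, against 7.62%. Without DMSO 2 the median was 0.29, with 16 members higher, against 11.9% of all genes, and 2 lower, against 8.9%. Leaving out HJ-4 1 left 1 member higher, and leaving out HJ-4 2 left none, with none lower in either case. These fits also gave fewer genes over the whole table, 3.94% and 3.79% higher and 3.26% and 4.5% lower.

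**Figure D1:**
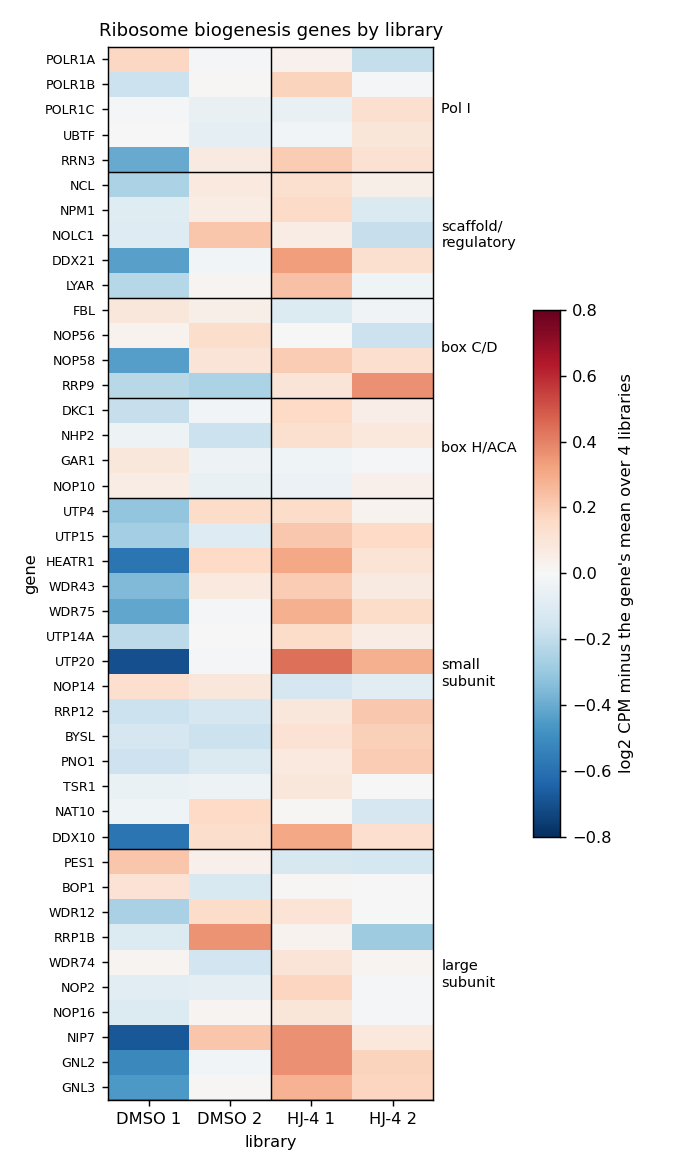
Level of each of the 42 genes (rows, grouped by role) in each of the 4 libraries (columns), as log2 CPM minus the gene's mean over the libraries, blue for below and red for above that mean. The DMSO 1 column is blue for most genes and holds the lowest value of 24 of them, and the HJ-4 1 column holds the highest value of 24.

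Base composition moved with the difference between libraries. The longest transcript of each member was used for GC content, with a median of 45.8%, from 37.7% to 65.6%, against 49% over all genes. Across the 42 members, GC content and the difference DMSO 2 minus DMSO 1 had a Pearson correlation of -0.60, against -0.21 across 13995 genes tested, and these points share the same pair of libraries. GC content and the fitted log2 fold change had a correlation of -0.37 across the members and -0.05 across all genes. In an alternative chosen after seeing the data, the GC trend of each library was removed. There 10 members were higher and 2 lower by the unadjusted p, and none was called after adjustment. Over the whole table, too, more genes had an unadjusted p under 0.05 than without this step. The members' median log2 fold change was 0.16 with the GC trend removed and 0.17 without this step. The part of base composition in the members' values was not tested further.

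**Figure D2:**
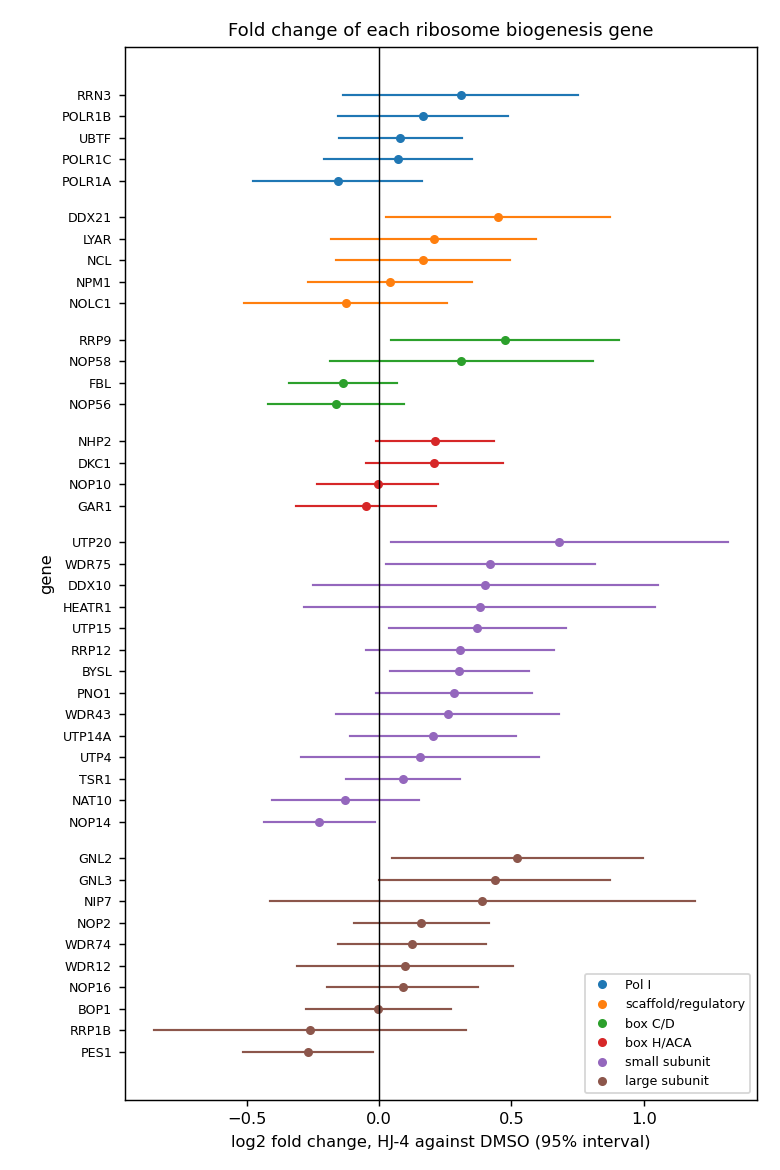
Fitted change of the 42 genes (points) between HJ-4 and DMSO, in log2 units, with 95% intervals (lines), ordered within each role, and a vertical line at 0. Most points lie to the right of 0, from -0.27 for PES1 to 0.68 for UTP20, and the intervals of 32 genes cross 0.

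A sequence feature that the choice of genes had not used was more frequent in member promoters than in those of all genes tested. The E-box CACGTG, the hexamer that MYC with its partner MAX and several related factors recognise, reads the same on both strands. It was looked for from 250 bases before to 50 bases after the start of transcription in the RefSeq promoters of GRCh38.p14, which held 37 of the 42 members. The 5 without an entry were NOLC1, NOP58, RRP12, BOP1 and RRP1B. The hexamer was present in 14 of the 37 member promoters (37.8%) and in 9.95% of the 11118 promoters of genes tested. Of its 15 occurrences in members, 13 (86.7%) began within 50 bases of the start, against 37.5% of the occurrences in all genes tested. When the related hexamer CATGTG and the further variant CACGCG were counted as well, on both strands, 67.6% of member promoters and 30.6% of all held at least 1 of them. A match describes these letters only and does not show that a factor binds there.

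Of the 14 carriers, 6 (42.9%) also had an unadjusted edgeR p under 0.05 between HJ-4 and DMSO. So did 4 of the 23 members without an E-box (17.4%) and 15.9% of all genes. These shares were not tested against each other, and none of the 6 passed after adjustment. The E-boxes of the 6 are printed here with 12 bases on each side, 5′ to 3′ on the strand of the gene, with the E-box in capitals. They are shown because the same element, at nearly the same place, stood at the start of genes whose fold changes had opposite signs.
GNL2: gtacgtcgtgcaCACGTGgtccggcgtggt
RRP9: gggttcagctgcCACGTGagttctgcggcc
BYSL: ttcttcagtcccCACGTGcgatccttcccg
UTP20: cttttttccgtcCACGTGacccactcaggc
NOP14: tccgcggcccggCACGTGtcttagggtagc
PES1: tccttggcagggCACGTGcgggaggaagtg

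In GRCh38.p14 these windows lie at chr1:37595917-37595946 (GNL2, minus strand), chr3:51941892-51941921 (RRP9, minus), chr6:41921515-41921544 (BYSL, plus), chr12:101280083-101280112 (UTP20, plus), chr4:2963374-2963403 (NOP14, minus) and chr22:30591880-30591909 (PES1, minus). The E-box of UTP20 began 10 bases before the start of transcription, outside the canonical transcript. The E-boxes of GNL2, PES1, NOP14 and BYSL began 3, 13, 15 and 28 bases after the start, in the 5′ UTR of the canonical GENCODE transcript. That of RRP9 began 5 bases before the RefSeq start, at the edge of the 5′ UTR that GENCODE gives. GNL2, RRP9, BYSL and UTP20 had positive fold changes, and NOP14 and PES1 negative ones.

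The median log2 fold change was 0.18 for the 14 members with an E-box and 0.17 for the 23 without. By role the element was in 8 of 13 promoters of small subunit processing genes (61.5%), in 3 of 8 of large subunit genes (37.5%) and in 0 of 5 of RNA polymerase I genes. It was in 2 of 3 promoters of box C/D genes, 1 of 4 of box H/ACA genes and 0 of 4 of scaffold and regulatory genes. Other processing factors outside the 42 also carried it often, 13 of 41 (31.7%) for the small subunit and 15 of 50 (30%) for the large subunit. The cytosolic ribosomal protein genes carried it in 3 of 63 promoters (4.76%).

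**Figure D3:**
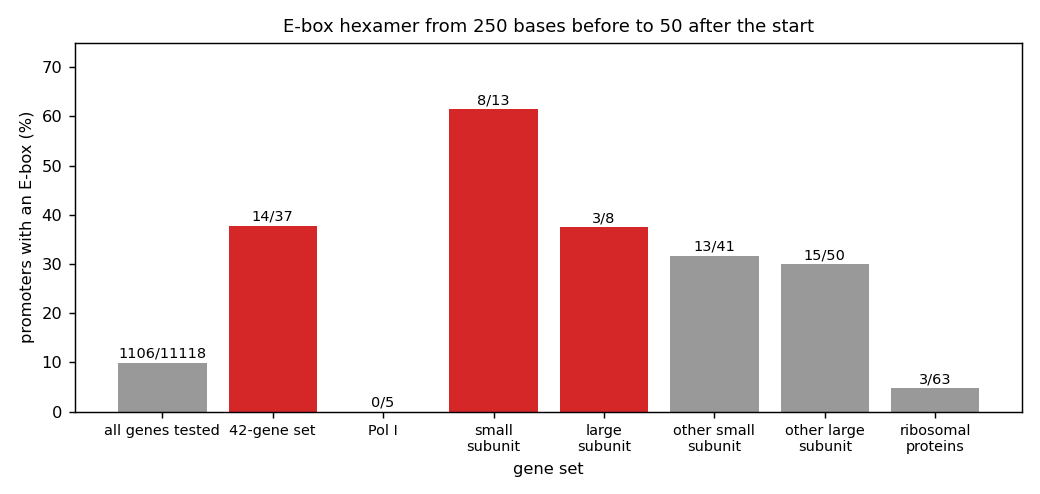
Share of RefSeq promoters, 250 bases before to 50 after the start of transcription, that hold the E-box hexamer (vertical axis, percent), for all genes tested, the 42-gene set, 3 of its roles (red) and 3 other gene lists (grey), with the number of promoters above each bar. Of the sets drawn, the small subunit processing genes stand highest at 61.5%, against 9.95% of all genes tested, and the RNA polymerase I genes have none.

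MYC itself was measured at 17.5 and 13.3 CPM in DMSO and 4.52 and 8.99 CPM in HJ-4. Both HJ-4 libraries lay below both DMSO libraries, with a log2 fold change of -1.19 (95% interval -2.10 to -0.28) and an adjusted p of 0.246 from edgeR, so the difference did not pass the test. MAX, the obligate partner of MYC, was at 33.2 and 44.7 CPM in DMSO and 21.5 and 26.4 CPM in HJ-4 (log2 fold change -0.70). MNT, a MAX partner that represses, was at 44.8 and 35.1 CPM against 57.0 and 61.9 CPM (log2 fold change 0.57). Neither MAX nor MNT passed the test after adjustment. The 10 tested genes of the list of MYC and its partners had a median log2 fold change of 0.00. At an unadjusted edgeR p under 0.05, 1 was higher (10%) and 3 lower (30%), against 7.93% of all genes in each direction. Both HJ-4 libraries lay below both DMSO libraries for 4 (40%, against 25.6% of all genes) and above for 2 (20%, against 25.2%). Whether these levels bear on the 42 genes was not tested.

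RNA polymerase I transcription genes differed little. The median log2 fold change was 0.08, positive for 4 of the 5 genes, and none reached an unadjusted p under 0.05. RRN3, the factor that carries the polymerase to the ribosomal DNA promoter, had the highest level per kilobase of the 5 in HJ-4 (14.4 CPM per kb). It was at 40.2 and 55.9 CPM in DMSO and at 61.2 and 57.8 CPM in HJ-4. Both HJ-4 values lay above both DMSO values, but DMSO 2 was closer to them than to DMSO 1, and the log2 fold change was 0.31 (95% interval -0.14 to 0.75). POLR1B, which forms the active site with POLR1A, was at 19.9 and 22.5 CPM in DMSO and 25.4 and 22.15 CPM in HJ-4. POLR1A, the largest subunit, was at 47.2 and 41.8 CPM in DMSO and 43.0 and 36.9 CPM in HJ-4. The groups overlapped for both subunits, with log2 fold changes of 0.17 and -0.15. UBTF, which binds along active ribosomal DNA, was at 67.8 and 64.1 CPM against 66.9 and 72.7 CPM, again overlapping (0.08). POLR1C, a subunit shared with RNA polymerase III, had a log2 fold change of 0.07 and reversed to -0.04 without HJ-4 2.

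Among the scaffold and regulatory proteins the median was 0.17, with 4 positive and 1 negative, but it was 0.01 without DMSO 1, 0.08 without HJ-4 1 and 0.34 without DMSO 2. DDX21 (ENSG00000165732), an RNA helicase of the nucleolus, was the 1 gene of this role at an unadjusted p under 0.05. It was at 78.7 and 105 CPM in DMSO and 134 and 116 CPM in HJ-4, all HJ-4 values above all DMSO values, with a log2 fold change of 0.45 (95% interval 0.03 to 0.87) and an adjusted edgeR p of 0.2996. LYAR, a zinc finger protein of the nucleolus, was at 17.6 and 20.9 CPM against 24.3 and 20.1 CPM, and the groups overlapped (0.21). NCL, nucleolin, was at 351 and 441 CPM in DMSO and 457 and 433 CPM in HJ-4, and NOLC1, a chaperone of small nucleolar particles, at 114 and 143 CPM against 127 and 108 CPM. NCL was lowest in DMSO 1 and NOLC1 in HJ-4 2. Their log2 fold changes were 0.17 and -0.13, and that of NOLC1 reversed to 0.05 without DMSO 2. NPM1, nucleophosmin, had the highest level per kilobase of the 42 genes, 120 CPM per kb in DMSO and 124 in HJ-4. Its values of 946 and 1052 CPM in DMSO and 1126 and 933 CPM in HJ-4 overlapped, with a log2 fold change of 0.04 that reversed in sign in 3 alternatives.

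Of the 4 box C/D genes, 2 had positive and 2 negative fold changes, none past the test. FBL, the methyltransferase fibrillarin, was at 206 and 200.4 CPM in DMSO and 179 and 190.2 CPM in HJ-4, and NOP56, a core protein of the particle, at 86.7 and 93.9 CPM against 85.4 and 75.8 CPM. For both, each HJ-4 value lay below each DMSO value, and the log2 fold changes were -0.14 and -0.16. Their 95% intervals, -0.34 to 0.07 and -0.42 to 0.09, included 0. NOP58, which pairs with NOP56, was at 38.4 and 56.3 CPM in DMSO and 60.3 and 57.3 CPM in HJ-4. Its log2 fold change of 0.31 was 0.06 without DMSO 1 and 0.61 without DMSO 2. RRP9 (ENSG00000114767), a protein of the U3 particle that takes part in cleavage, was at 4.11 and 4.02 CPM in DMSO and 5.14 and 6.17 CPM in HJ-4. For RRP9 the difference DMSO 2 minus DMSO 1 was only -0.03 log2 units, and both HJ-4 libraries lay above them, with a log2 fold change of 0.48 (95% interval 0.04 to 0.91) and an adjusted edgeR p of 0.289. The median of the 4 was 0.09. A minimum mean level of 5 CPM, which left out RRP9, gave -0.14, without DMSO 1 it was -0.03, and without DMSO 2 it was 0.18.

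The 4 box H/ACA genes had a median of 0.10, and none reached an unadjusted p under 0.05. DKC1, the pseudouridine synthase dyskerin, was at 53.2 and 59.6 CPM in DMSO and 67.6 and 62.9 CPM in HJ-4, and NHP2, a core protein of the particle, at 83.8 and 76.8 CPM against 94.4 and 91.5 CPM. Both were separate between the groups, each with a log2 fold change of 0.21, and the 95% intervals of -0.05 to 0.47 and -0.01 to 0.43 included 0. GAR1, another core protein, was at 22.6 and 20.6 CPM in DMSO and 20.7 and 21.0 CPM in HJ-4 (-0.05). NOP10, the smallest core protein, was at 91.7 and 84.5 CPM against 85.1 and 90.5 CPM (-0.00). These last 2 overlapped between the groups and changed sign in some alternatives.

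Levels per kilobase allow subunits of 1 particle to be set against each other within a library. The NOP58 to FBL ratio was 0.122 and 0.183 in DMSO and 0.220 and 0.197 in HJ-4, a log2 change of 0.47, whereas NOP56 to FBL was 0.182 and 0.202 against 0.206 and 0.172. For NOP58 to FBL, DMSO 2 lay closer to both HJ-4 libraries than to DMSO 1. The GAR1 to DKC1 ratio was 1.98 and 1.62 in DMSO and 1.43 and 1.57 in HJ-4, a log2 change of -0.26. There too DMSO 2 lay closer to both HJ-4 libraries than to DMSO 1. Ratios of NHP2 and of NOP10 to DKC1 overlapped between the groups, with means of 8.92 and 9.16 in DMSO and 8.89 and 7.88 in HJ-4. With 2 libraries a group an exact two-sided permutation test cannot go below p = 0.333, so the ratios are given as values. Reads per kilobase of exon are set by which transcripts a gene uses as well as by its level.

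**Figure D4:**
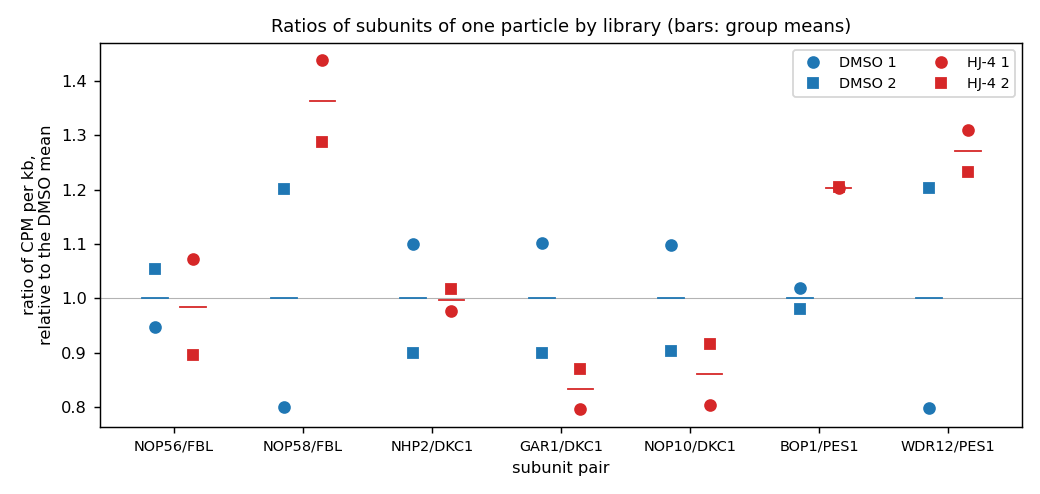
Ratio of CPM per kb between subunits of the same particle in each library (circles for library 1, squares for library 2, blue for DMSO, red for HJ-4), divided by the DMSO mean of that ratio, with group means as short bars. Values of the groups separate for NOP58/FBL, GAR1/DKC1, BOP1/PES1 and WDR12/PES1 and overlap for NOP56/FBL, NHP2/DKC1 and NOP10/DKC1.

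Several members carry in their own introns the guide RNAs that these particles use. In GENCODE version 44, 7 of the 42 genes (16.7%) held 25 annotated small nucleolar RNA genes on their own strand, against 252 of 19569 protein-coding genes of the table (1.29%). The hosts were NCL, NOP56, NOP58, DKC1, WDR43, TSR1 and GNL3, and all 25 lay within introns of the canonical transcript. The sequences of 4, each from a host that is itself a nucleolar protein of these particles or their scaffold, are printed from GRCh38, 5′ to 3′. Capitals mark the C box and D box of the box C/D RNAs and the ACA of the box H/ACA RNA, the elements after which the particles are named.
SNORD20 in NCL: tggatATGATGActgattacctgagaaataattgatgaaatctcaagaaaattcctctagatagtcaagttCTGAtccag
SNORD57 in NOP56: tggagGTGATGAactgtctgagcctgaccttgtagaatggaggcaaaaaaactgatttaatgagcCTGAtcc
SNORD11 in NOP58: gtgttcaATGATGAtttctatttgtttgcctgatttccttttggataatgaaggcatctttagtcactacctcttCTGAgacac
SNORA56 in DKC1: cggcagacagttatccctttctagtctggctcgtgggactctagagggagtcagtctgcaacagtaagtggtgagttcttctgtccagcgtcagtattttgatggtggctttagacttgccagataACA

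They lie at chr2:231456444-231456523 (SNORD20, minus strand), chr20:2656939-2657010 (SNORD57, plus), chr2:202293051-202293134 (SNORD11, plus) and chrX:154774998-154775126 (SNORA56, plus). The count table holds 0 small nucleolar RNA genes and 0 ribosomal RNA genes by this annotation, so only the host messages were measured. The precursor and mature ribosomal RNAs, the direct products of this pathway, were not analysed here.

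Small subunit processing had a median of 0.29 over 14 genes, with 12 positive and 2 negative. This median was the highest of the 6 roles with all libraries. Without DMSO 1 it equalled those of the RNA polymerase I and box H/ACA genes to 2 decimals. The HJ-4 values lay above the DMSO values without overlap for 8 genes (57.1%, against 25.2% of all genes). They lay below for 1 gene (7.14%, against 25.6%). DMSO 1 held the lowest value of 11 of the 14 genes (78.6%, against 26.7% of all genes). BYSL (ENSG00000112578), bystin, which acts on the maturing small subunit, was the member with the smallest p. It was at 16.4 and 16.0 CPM in DMSO and 19.5 and 20.5 CPM in HJ-4, a log2 fold change of 0.30 (95% interval 0.04 to 0.57). The DMSO libraries were close for this gene, with a difference DMSO 2 minus DMSO 1 of -0.04 log2 units. PNO1, which acts on the same precursor, had a similar pattern at 12.6 and 13.0 CPM against 14.9 and 16.3 CPM (0.28), and so did RRP12, needed for export of the subunits, at 5.77 and 5.92 CPM against 6.90 and 7.55 CPM (0.31).

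UTP15 (ENSG00000164338), of the UTP-A group that binds the nascent precursor first, was at 7.77 and 8.71 CPM in DMSO and 10.9 and 10.5 CPM in HJ-4, with a log2 fold change of 0.37 (95% interval 0.04 to 0.71). UTP20 (ENSG00000120800), a large scaffold protein of the small subunit processome, had the largest fold change of the 42, 0.68 (95% interval 0.05 to 1.32), at 6.59 and 10.6 CPM against 14.5 and 13.0 CPM. DMSO 1 and DMSO 2 differed by 0.68 log2 units on UTP20, as much as the fitted change. NOP14 (ENSG00000087269), an assembly factor of the same processome, went the other way, at 70.2 and 68.1 CPM in DMSO and 58.3 and 60.1 CPM in HJ-4. Its groups were far apart relative to their own spread, with a log2 fold change of -0.22 (95% interval -0.43 to -0.02) and an adjusted edgeR p of 0.297.

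The 5 members of UTP-A all had positive fold changes, with a median of 0.37 (UTP15, WDR75 0.42, HEATR1 0.38, WDR43 0.26 and UTP4 0.16). WDR75 (ENSG00000115368), at 52.8 and 69.5 CPM in DMSO and 85.9 and 77.8 CPM in HJ-4, was the other member of this group at an unadjusted p under 0.05. All 5 had their lowest value in DMSO 1 and their highest in HJ-4 1. Their median difference between the control libraries was 0.43, and the HJ-4 mean lay a median of 0.06 above DMSO 2. Of the other small subunit genes, the helicase DDX10 had a log2 fold change of 0.40, the helicase cofactor UTP14A 0.20, TSR1, a late assembly factor, 0.09, and the RNA acetyltransferase NAT10 -0.13. HEATR1 and DDX10 had the widest gaps between the control libraries in this role, 0.74 and 0.72 log2 units. Without DMSO 1 the median of the 14 genes was 0.09, the same to 2 decimals as those of the RNA polymerase I and box H/ACA genes.

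Large subunit processing had a median of 0.11 over 10 genes, 7 positive and 3 negative, and 0.07 without DMSO 1 or without HJ-4 1. The related GTPases GNL2 and GNL3 were both higher at an unadjusted p under 0.05. GNL2 (ENSG00000134697) was at 43.2 and 60.7 CPM in DMSO and 79.5 and 69.8 CPM in HJ-4, with a log2 fold change of 0.52 (95% interval 0.05 to 1.00). GNL3 (ENSG00000163938), nucleostemin, had the highest level per kilobase of this role and was at 92.9 and 128.5 CPM against 155 and 144 CPM (0.44). In both, every HJ-4 value exceeded every DMSO value, and DMSO 2 lay nearer to the HJ-4 libraries than DMSO 1 did. NOP2, a methyltransferase of the large subunit RNA, was at 55.5 and 55.8 CPM in DMSO and 66.1 and 58.3 CPM in HJ-4 (0.16).

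PES1, BOP1 and WDR12 form the PeBoW complex, which is needed to process the large subunit precursor. No difference in fold change between the 3 was tested, and their 95% intervals overlapped. PES1 (ENSG00000100029) was at 103 and 91.0 CPM in DMSO and 81.2 and 80.4 CPM in HJ-4, the lowest log2 fold change of the 42 at -0.27 (95% interval -0.51 to -0.02). BOP1 (-0.00) and WDR12 (0.10) overlapped between the groups, and both changed sign in some alternatives. The BOP1 to PES1 ratio per kilobase was 1.08 and 1.04 in DMSO and 1.27 in each HJ-4 library. The WDR12 to PES1 ratio was 0.164 and 0.247 in DMSO against 0.269 and 0.253 in HJ-4. For WDR12 to PES1, DMSO 2 lay closer to both HJ-4 libraries than to DMSO 1. Of the remaining assembly factors of the large subunit, RRP1B had a log2 fold change of -0.26, WDR74 0.12, NOP16 0.09 and NIP7 0.39. NIP7 had the largest gap between the control libraries of the 42, at 0.90 log2 units.

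Overlapping transcription limits 12 members, whose exons overlap those of a gene of the table on the opposite strand. Among those described above these include PES1 (with TCN2), GNL2 (with DNALI1), GNL3 (with GLT8D1), UTP15 (with ANKRA2), HEATR1 (with LGALS8), NHP2 (with RMND5B) and PNO1. No source used here gives the strand setting of the counting, so reads of such pairs may not have been told apart.

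The rest of the ribosome biogenesis machinery served as a comparison. In 5 lists of other factors, 152 genes tested had a median log2 fold change of 0.02, with 81 positive and 71 negative. At an unadjusted edgeR p under 0.05, 11 were higher (7.24%) and 5 lower (3.29%), against 7.93% of all genes in each direction. None passed after adjustment. The medians were 0.03 for other RNA polymerase I factors (19 genes), -0.03 for other box C/D and H/ACA factors (12), 0.04 for other small subunit factors (49), 0.02 for other large subunit factors (55) and 0.01 for the exosome and exonucleases that trim the precursor (17). All 5 lay below the members' 0.17, and the difference was not tested. The members and these lists were chosen with earlier results of these data known, so the comparison only describes them. DMSO 1 held the lowest value of 34.2% of these 152 genes, against 57.1% of the members.

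Some of these factors differed at an unadjusted p under 0.05. Of the RNA polymerase I list, TAF1D, a subunit of the promoter selectivity factor, had a log2 fold change of 0.37 and MYBBP1A, a nucleolar binding protein of MYB, of 0.45. In the small subunit list the kinase RIOK3 was at 118 and 114 CPM in DMSO and 69.5 and 67.1 CPM in HJ-4, a log2 fold change of -0.76 (95% interval -0.97 to -0.56) with an adjusted edgeR p of 0.0794, the smallest in the 5 lists. The related kinase RIOK1 had a log2 fold change of 0.50 and RCL1, a protein of the processome, 0.55. The large subunit export adaptor NMD3 had 0.56, MAK16 0.44 and RRP1 -0.32. The exosome subunits EXOSC4 (-0.42) and EXOSC1 (0.41) had opposite signs, and PIH1D1, of a box C/D assembly complex, had -0.32.

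The 79 cytosolic ribosomal protein genes, whose products the biogenesis factors assemble, had a median log2 fold change of 0.05, with 58 positive (73.4%) and 21 negative. At an unadjusted edgeR p under 0.05, 2 of them, RPS19 and RPS28, were higher (2.53%) and none lower, against 7.93% of all genes in each direction. None passed after adjustment. RPS19 was at 745 and 640.5 CPM in DMSO and 976.1 and 976.5 CPM in HJ-4, a log2 fold change of 0.49. Their median centred level was 0.03 in DMSO 1 and -0.09 in DMSO 2, so these genes stood lower in DMSO 2 and the 42 members in DMSO 1. Without DMSO 2 their median was -0.01.

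**Figure D5:**
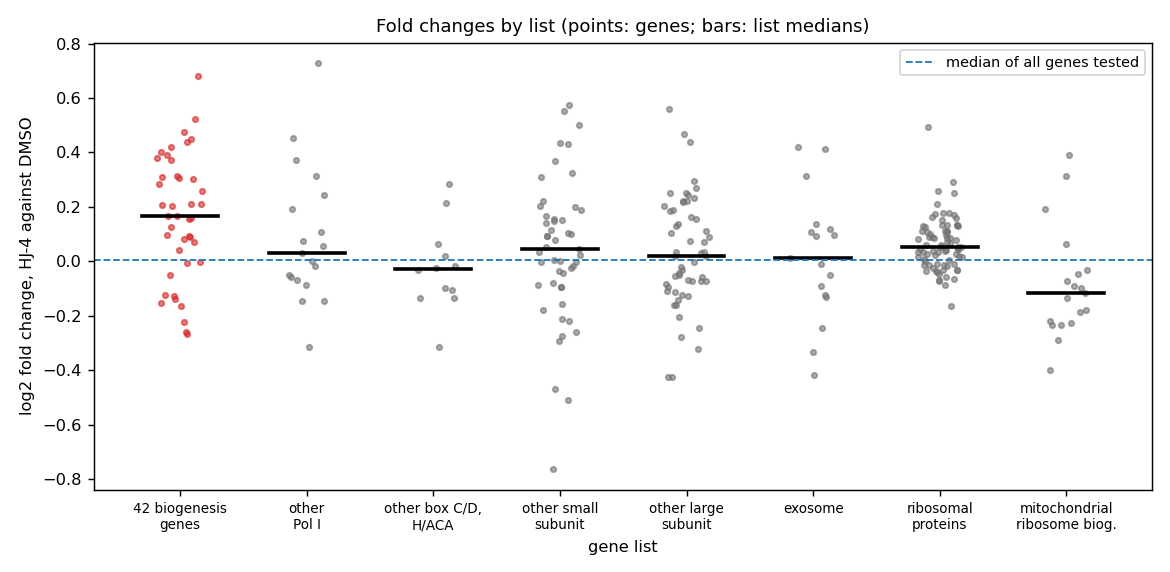
Change between HJ-4 and DMSO in log2 units (vertical axis) for the tested genes (points) of the 42-gene set (red) and of 7 other gene lists (grey), with the median of each list as a black bar and the median of all genes tested as a dashed line. The bar of the 42 genes stands at 0.17, those of the other biogenesis lists between -0.03 and 0.04, and that of the mitochondrial ribosome biogenesis genes at -0.12.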

How the data were processed

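RNA sequencing of HCT116 cells gave 4 libraries, 2 per group. The authors deposited raw counts of reads per Ensembl gene. The study's methods name FastQC, Trimmomatic, STAR on GRCh38, featureCounts and TPM, whereas HISAT2, bedtools and RSEM stand beside FastQC and Trimmomatic in the submitters' processing notes. The counter, the annotation and the strand setting behind the table are not given in the sources used here. The study's methods describe biological triplicates, and 2 libraries per group were analysed here. A figure legend of the study gives a lower HJ-4 dose for the transcriptome than its methods and the labels, whose dose is used.

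Symbols and coordinates were taken from GENCODE version 44 (20148 of 20263 IDs matched). Counts were filtered with filterByExpr, scaled by TMM and tested with the quasi-likelihood test of edgeR 4.0.16 in R 4.3.3, with Benjamini-Hochberg adjustment over 14044 genes. Genes varied between libraries with a common biological coefficient of variation of 0.157. The study names limma, and edgeR was used because the values are counts. DESeq2 1.42.0, limma 3.58.1 and other settings were alternatives. CPM are TMM-scaled, and CPM per kb divide by the length of all exons of a gene. Scripts were tested on simulated data. Libraries of the same group differed beyond sampling noise, with chi-square values per degree of freedom of 37.9 for DMSO and 22.8 for HJ-4.

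The members and all gene lists were chosen with earlier results of these data known. Values per library are given for up to 4 members of each role with the smallest unadjusted p, for the member highest per kilobase, and for PNO1, RRP12 and further members named after their values were seen. Of each other list up to 3 genes with the smallest p were named, with MYC, RPL5, RPL11 and MDM2. A withheld item is not reported here.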

Additional observations from a re-analysis of the deposited data

How the results depend on the processing

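Over all genes, the 7 calls became 12 with no filter on low counts, 559 with DESeq2, 13 with limma on log2(TPM + 1), 46 with the robust quasi-likelihood fit, 28 with the GC trend removed, and 0 to 88 when 1 library was left out. The members had 0 calls in every alternative, with a smallest adjusted p of 0.075. The replicate numbers are shared by label only (correlation of the deviations -0.0429 over 2 pairs), and with the replicate block 31 genes were called, with 5 members at an unadjusted p under 0.05 on the higher side, 0 on the lower side and a log2 fold change of 0.00 for BOP1. The 8 members higher at that level became 5 with total counts, 5 with DESeq2 and 0 to 16 when 1 library was left out, and the 2 lower became 1 with limma on log2(TPM + 1) and 0 to 2. All genes at that level, 2228 in the report's test, ranged from 1030 to 2982.

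When 1 library was left out, the median log2 fold change ranged from 0.08 to 0.29 for the members, 0.01 to 0.15 for RNA polymerase I genes, -0.03 to 0.18 for box C/D, 0.01 to 0.34 for scaffold and regulatory genes, 0.04 to 0.11 for box H/ACA, 0.09 to 0.36 for small subunit and 0.07 to 0.16 for large subunit genes. For other lists it ranged from -0.08 to 0.04 (other box C/D and H/ACA), 0.01 to 0.05 (other large subunit), -0.10 to 0.14 (exosome), -0.01 to 0.11 (ribosomal proteins), 0.11 to 0.42 (small nucleolar RNA hosts), -0.16 to -0.09 (mitochondrial ribosome biogenesis) and -0.07 to 0.06 (MYC and partners). The box C/D median was -0.14 with a mean of at least 5 CPM. The box H/ACA median was 0.07 with total counts and 0.07 with the GC trend removed. The other large subunit median was -0.01 with total counts and 0.04 with limma on log2(TPM + 1), and the mitochondrial median -0.14 with total counts and -0.15 with the GC trend removed. With the length of the longest transcript, the DMSO means were 0.209 for NOP56 to FBL, 1.02 for BOP1 to PES1 and 0.140 for WDR12 to PES1. The wider motif was in 67.6% of promoters.

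Of 586 member values under alternatives, 17 in 8 members changed sign, none of them past the test. With 1 library left out, the log2 fold change ranged from -0.04 to 0.17 for POLR1C, -0.09 to 0.16 for NPM1, -0.28 to 0.05 for NOLC1, -0.11 to 0.02 for GAR1, -0.06 to 0.06 for NOP10, -0.06 to 0.40 for UTP4, -0.12 to 0.12 for BOP1 and -0.09 to 0.32 for WDR12. NOP10 was 0.01 with limma on log2(TPM + 1). BOP1 was 0.00 with limma-voom, 0.02 with limma on log2(TPM + 1) and 0.02 with the GC trend removed, where NPM1 was -0.00. The cause of these moves was not tested.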

Other observations

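The genes that build the mitochondrial ribosome, a separate machinery, had a median log2 fold change of -0.12 over 19 tested, 4 positive and 15 negative, and both HJ-4 libraries lay below both DMSO libraries for 9 of them (47.4%, against 25.6% of all genes). MRM3, a methyltransferase of mitochondrial ribosomal RNA, was at 16.9 and 16.0 CPM in DMSO and 13.9 and 13.0 CPM in HJ-4 (-0.29), and RBFA, a factor of its small subunit, at 25.2 and 26.2 CPM against 22.1 and 21.7 CPM (-0.23). MTERF3 had the opposite sign, at 14.5 and 16.2 CPM against 19.96 and 18.2 CPM (0.31). None passed the edgeR test after adjustment. At an unadjusted p under 0.05, 1 was higher (MTERF3) and 1 lower (MRM3), 5.26% each, against 7.93% of all genes in each direction.

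Of 19 listed host transcripts of small nucleolar RNAs, 3 were in the table and tested. RABGGTB, which encodes a prenyltransferase subunit, was at 105.5 and 104 CPM in DMSO and 147 and 132 CPM in HJ-4 (log2 fold change 0.41). SNHG32 had 0.33 and TMEM107 -0.31, and the median was 0.33.

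Genes whose products take part in the response to disturbed ribosome production were also read, at the level of RNA only. CDKN1A, an inhibitor of the cell cycle, was at 287 and 224 CPM in DMSO and 388 and 435 CPM in HJ-4, a log2 fold change of 0.69 with an adjusted edgeR p of 0.173. RPS27L, a ribosomal protein paralog, had 0.28. RPL5 and RPL11, which as free proteins bind MDM2, had 0.11 and 0.17, each with both HJ-4 libraries above both DMSO libraries. The adjusted edgeR p was 0.49 for RPL5 and 0.39 for RPL11. MDM2, a ubiquitin ligase, was at 145 and 54.4 CPM in DMSO and 43.8 and 171.5 CPM in HJ-4, so the libraries of each group differed more than the groups did.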
